A study of Drosophila melanogaster with 15 samples.

Results

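The nicotinic acetylcholine receptor (nAChR) subunit genes of *Drosophila melanogaster* were followed across a control strain and 5 strains with deletions of *CBS* or *CSE*. The members were the 10 genes with the FlyBase symbols nAChRalpha1 to nAChRalpha7 and nAChRbeta1 to nAChRbeta3, out of 17453 genes in each table of reads per gene. All 10 had a row in the tables, 9 had enough reads to be tested, and nAChRbeta3 had a count of 0 in every library.

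Nicotinic receptors are pentameric cation channels that acetylcholine opens. In insects acetylcholine is the main fast excitatory transmitter of the central nervous system, and it is used among others by olfactory and other sensory neurons and by the Kenyon cells of the mushroom body. Alpha subunits carry the paired cysteines of the acetylcholine binding site, and beta subunits lack them. The *Drosophila* subunits alpha5, alpha6 and alpha7 are closely related to each other in sequence. Neonicotinoid and spinosyn insecticides act on these receptors, and nAChRalpha6 is the target of spinosad.

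The 15 libraries were made from polyadenylated RNA of about 100 heads each, taken from naive males aged 5 days. The control strain 58492 carries Cas9 driven by the actin 5C promoter and mutations in *yellow*, *white* and *DNAlig4*, and it had 2 libraries (replicates 1 and 3). *CBS*, which makes cystathionine from homocysteine, was deleted by CRISPR/Cas9 in the strains *CBS-/-*(5), with 2 libraries, and *CBS-/-*(8), with 3. *CSE*, which cleaves cystathionine, was deleted in *CSE-/-*, with 3 libraries. Both were deleted in the double deletion strains *CBS-/-*; *CSE-/-*(1), with 3 libraries, and *CBS-/-*; *CSE-/-*(2), with 2. Each strain is a single line derived from an editing event, so a strain stands for its genotype together with whatever else the line carries, and these cannot be told apart.

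Reads counted on genes numbered between 6850445 and 21144213 per library. Control replicate 3 had the highest share of ambiguous reads of the 15 libraries (8.27%) and the lowest share outside annotated features (2.84%). The deleted genes matched the labels, in CPM (read counts relative to library sizes scaled by TMM, the unit used below). *CBS* (symbol Cbs) stood at 0.275 to 2.82 CPM in the 4 strains that lack it. It was at 174 and 202 CPM in the control and lower, at 68.2 to 121 CPM, in *CSE-/-*. *CSE* (symbol Cth) stood at 0.734 to 1.73 CPM in the 3 strains that lack it and at 32.6 to 67.9 CPM elsewhere. Markers of neurons and photoreceptors were present in every library, with summed levels of 176 to 553 CPM over 11 genes and 40223 to 65817 CPM over 12 genes. The markers ninaA and gammaTry were at 0 in all 15. Summed midgut markers lay between 180 and 509 CPM in *CBS-/-*(5) and between 1744 and 28947 CPM in the other strains, and their part in the results below was not tested.

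The subunit genes differ widely in build, by the annotation of the BDGP6 assembly. nAChRalpha1, nAChRalpha2 and nAChRbeta2 lie within 121 kb of each other on chromosome 3R, from position 24393896 to 24515106. nAChRalpha4 and nAChRbeta1 are on 3L, nAChRalpha5, nAChRalpha6 and nAChRbeta3 on 2L, and nAChRalpha3 and nAChRalpha7 on X. nAChRalpha2, nAChRbeta1 and nAChRbeta2 are compact genes that span 5.72, 6.64 and 5.88 kb. The other tested genes are longer, from 21.4 kb for nAChRalpha7 to 92.9 kb for nAChRalpha6. nAChRalpha4 to nAChRalpha7 have 15 or 16 merged exons and 4 to 7 annotated transcripts, whereas the other members have at most 12 exons and 3 transcripts.

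Per kilobase of exon, 3 subunits stood well above the rest in the heads. Over the 15 libraries the median was 17.9 CPM per kb for nAChRbeta1, 13.8 for nAChRbeta2 and 12.9 for nAChRalpha2. These 3 were close to one another: nAChRbeta1 was above nAChRbeta2 in 11 of 15 libraries, and nAChRbeta2 above nAChRalpha2 in 10 of 15, so their order lay within the spread of the libraries. Below them came a gap, since nAChRalpha2 exceeded nAChRalpha1 in all 15 libraries, by 4.88 to 12.8 times. Exon length was taken over all annotated transcripts, so a long 3′ UTR that is used only in part lowers a value on this scale.

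The remaining 6 subunits had medians of 1.5 CPM per kb for nAChRalpha1, 1.11 for nAChRalpha7, 0.868 for nAChRalpha6, 0.715 for nAChRalpha4, 0.297 for nAChRalpha5 and 0.270 for nAChRalpha3. Neighbours in this order were not separated in every library, the higher being above the lower in between 10 and 12 of 15. In both control libraries nAChRalpha7 was above nAChRalpha1, while nAChRalpha1 was above nAChRalpha7 in 12 of the 13 libraries with deletions. The lowest members rested on few reads, with 21 to 47 per library for nAChRalpha3, 8 to 90 for nAChRalpha4 and 16 to 67 for nAChRalpha5.

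**Figure D1:**
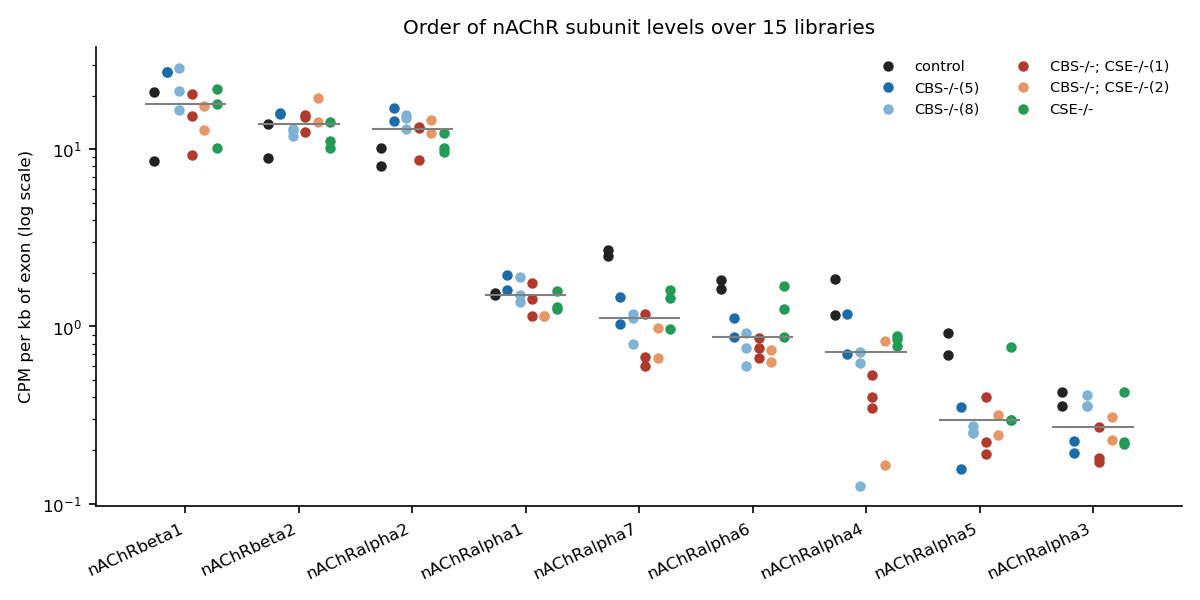
Level of 9 nAChR subunit genes in CPM per kb of exon (logarithmic axis) in each of 15 libraries, coloured by strain, with the median of the libraries as a grey bar. nAChRbeta1, nAChRbeta2 and nAChRalpha2 form an upper group, and the control points lie at or near the upper edge for nAChRalpha4 to nAChRalpha7.

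Shares of the family's summed level are given here for groups of subunits formed after their values were seen, as a description. nAChRalpha4 to nAChRalpha7 together took 13.1% and 18.4% of the family's summed level per kb in the control libraries. They took 4.92% and 5.78% in *CBS-/-*(5), 4.44% to 5.22% in *CBS-/-*(8), 3.8% to 7.90% in double deletion strain (1), 3.55% and 5.76% in strain (2) and 6.24% to 13% in *CSE-/-*. The control libraries were the highest in this share, as the choice of these subunits fixes. nAChRalpha2, nAChRbeta1 and nAChRbeta2 made up 75.8% and 83.4% in the control and 81.5% to 93.7% in the other libraries, so the ranges met only through a *CSE-/-* library.

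Each strain was set against the control in its own fit (edgeR's quasi-likelihood test with Benjamini-Hochberg adjustment over all genes), with the threshold for a call at an adjusted p of 0.05. No member was called higher in any strain. The number called lower, of 9 tested, was 0 in *CBS-/-*(5) and 3 in *CBS-/-*(8), 3 in the double deletion strain (1) against 1 in strain (2), and 0 in *CSE-/-*. Of all genes tested, 7.74%, 4.67%, 3.03%, 2.36% and 0.565% were called lower in the same order, and 1.6%, 1.76%, 1.15%, 1.1% and 0.213% were called higher. The called members were nAChRalpha4, nAChRalpha5, nAChRalpha6 and nAChRalpha7. Without adjustment, 5 members had a p under 0.05 in *CBS-/-*(5) and 2 in *CSE-/-*, and DESeq2 called 3 and 0 there. The 5 comparisons share the 2 control libraries, so they are not independent of one another.

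The libraries of a strain lay wholly below those of the control for 4 of the 9 members in *CBS-/-*(5), 4 in *CBS-/-*(8), 5 and 6 in the double deletion strains and 2 in *CSE-/-*, beside 32.3%, 18.4%, 19.5%, 25.6% and 12.6% of all genes tested. They lay wholly above for 4, 1, 0, 2 and 0 members, beside 31.7%, 18.8%, 18.2%, 29.2% and 11.2% of all genes. nAChRalpha7 was among the members below in every strain and nAChRalpha4 in every strain but *CBS-/-*(5). nAChRalpha2 was among those above in both *CBS-/-* strains and in double deletion strain (2). These shares also apply where single members are said below to lie wholly below or above the control.

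nAChRalpha7, a subunit that the giant fibre escape circuit requires, was called lower in more strains than any other member. Its level was 15.5 and 14.5 CPM in the control libraries. It was 8.44 and 5.96 CPM in *CBS-/-*(5), 6.42, 6.80 and 4.59 CPM in *CBS-/-*(8), and 5.58, 9.23 and 8.35 CPM in *CSE-/-*. In the double deletion strains it was 3.46, 3.90 and 6.78 CPM in strain (1) and 5.69 and 3.86 CPM in strain (2). All 13 libraries with deletions lay below both control libraries, which held for 5.95% of all genes tested.

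The log2 fold change of nAChRalpha7 was -1.36 ± 0.30 (SE) in *CBS-/-*(8) (adjusted p = 0.0191), -1.68 ± 0.32 in double deletion strain (1) (adjusted p = 0.0318) and -1.67 ± 0.30 in strain (2) (adjusted p = 0.0464). These correspond to 2.56, 3.21 and 3.18 times lower levels. It was -1.04 ± 0.24 in *CBS-/-*(5) (adjusted p = 0.0545) and -0.96 ± 0.31 in *CSE-/-* (adjusted p = 0.411), and neither was called. The gene is on a list that the study made from these same libraries, so its fall is not independent evidence. The calls rested on few libraries: the one in *CBS-/-*(8) was lost without either control library or without its own replicate 5, that in double deletion strain (1) without either control library or replicates 1 or 2, and that in strain (2) without either control library or replicate 4. Adjusted p over these omissions ranged from 0.0158 to 0.124, from 0.00585 to 0.168 and from 0.00787 to 0.133, and the log2 fold change stayed between -2.02 and -1.20.

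nAChRalpha6 followed a similar course. It stood at 14.2 and 12.6 CPM in the control, 6.79 and 8.72 CPM in *CBS-/-*(5), and 4.63, 5.84 and 7.18 CPM in *CBS-/-*(8). The double deletion libraries had 5.19, 5.91 and 6.69 CPM in strain (1) and 5.76 and 4.91 CPM in strain (2). In *CSE-/-* the libraries were spread from 6.75 through 9.74 to 13.2 CPM, and the highest of them, replicate 4, lay between the control libraries. Every library of the 4 strains without *CBS* was below both controls. Taken strain by strain, this held for 32.3%, 18.4%, 19.5% and 25.6% of all genes tested, and the share for the 4 together was not counted.

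nAChRalpha6 was called lower in *CBS-/-*(8), at a log2 fold change of -1.20 ± 0.30 (adjusted p = 0.0386), and in double deletion strain (1), at -1.18 ± 0.24 (adjusted p = 0.0381). It was -1.35 ± 0.26 in strain (2) (adjusted p = 0.0569), -0.77 ± 0.23 in *CBS-/-*(5) (adjusted p = 0.0868) and -0.45 ± 0.33 in *CSE-/-* (adjusted p = 0.938). When each library was left out in turn, the call in *CBS-/-*(8) held only without its replicate 1, and that in strain (1) only without its replicate 3. Adjusted p otherwise reached 0.173 and 0.200.

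nAChRalpha5 was among the least abundant subunits. Its levels were 6.47 and 8.64 CPM in the control, 1.47 and 3.30 CPM in *CBS-/-*(5), and 2.39, 2.36 and 2.58 CPM in *CBS-/-*(8). The double deletion libraries held 2.08, 1.80 and 3.76 CPM in strain (1) and 2.29 and 2.98 CPM in strain (2). In *CSE-/-* replicates 1 and 3 had 2.79 and 2.78 CPM and replicate 4 had 7.17 CPM, so that only replicate 4 overlapped the control. The log2 fold change was nearly the same in the 4 strains without *CBS*, from -1.64 to -1.52, but edgeR called it in *CBS-/-*(8) alone (-1.64 ± 0.35, adjusted p = 0.0157), while DESeq2 called it in all 4. It was lost there without control replicate 3, with an adjusted p of 0.191. The adjusted p was 0.0688 in *CBS-/-*(5), 0.0690 and 0.0766 in the double deletion strains and 0.858 in *CSE-/-*. A call was gained in *CBS-/-*(5) without its replicate 3 (-2.32, adjusted p = 0.00585) and in double deletion strain (1) without its replicate 3 (-1.96, adjusted p = 0.0206).

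nAChRalpha4, also known as redeye and required for normal sleep, varied most among libraries of one strain. It was at 11.2 and 6.98 CPM in the control, 7.07 and 4.22 CPM in *CBS-/-*(5), and 4.70, 5.38 and 5.14 CPM in *CSE-/-*. In *CBS-/-*(8) replicates 1 and 2 had 4.33 and 3.75 CPM and replicate 5 had 0.766 CPM, the lowest level of the gene. The double deletion libraries had 3.20, 2.41 and 2.11 CPM in strain (1), and 4.99 and 0.994 CPM in strain (2). Only a library of *CBS-/-*(5) overlapped the control. The gene shares 1278 bp of its 6050 bp of exon with other annotated features, among them transposable elements and the antisense lncRNA:CR46475, so its counts are less certain.

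The call for nAChRalpha4 was reached in double deletion strain (1), at a log2 fold change of -1.83 ± 0.33 (adjusted p = 0.0258). It was lost without control replicate 1 or replicate 2 of strain (1), where the adjusted p rose to as much as 0.212. In *CBS-/-*(8) and strain (2) the log2 fold changes of -1.68 ± 0.54 and -1.63 ± 0.73 were of similar size with larger errors (adjusted p = 0.0968 and 0.265). Without replicate 2 of *CBS-/-*(8) the gene was called there (-1.93, adjusted p = 0.0152). Without replicate 2, strain (2) had only its low library, and the gene was then called at -3.21 (adjusted p = 0.00229). In *CBS-/-*(5) and *CSE-/-* the values were -0.68 ± 0.37 and -0.85 ± 0.33 (adjusted p = 0.261 and 0.590).

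**Figure D2:**
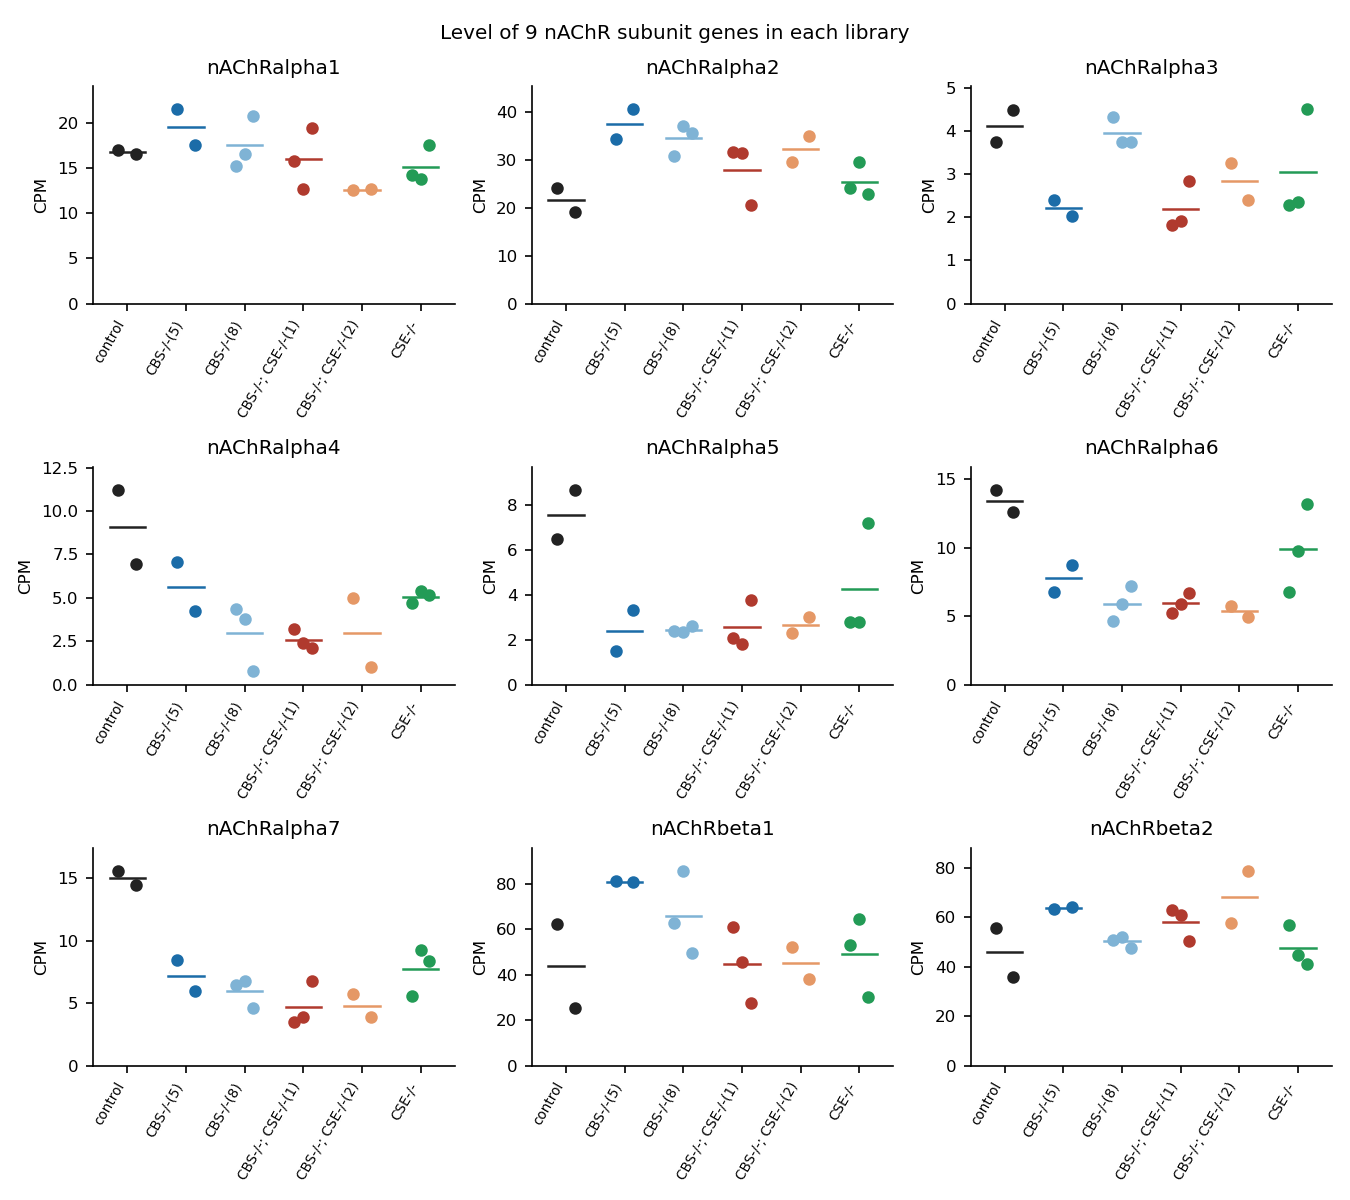
CPM (linear axes from 0) of 9 subunit genes in every library, grouped by strain, with each point a library and each bar the mean of its strain. For nAChRalpha7 all 13 libraries with deletions lie below both control libraries, and for nAChRbeta1 a low and a high library occur within the control, double deletion strain (1) and *CSE-/-*.

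The remaining alpha subunits did not pass the test in any strain. nAChRalpha1 was the steadiest member, with 17 and 16.6 CPM in the control and 12.6 to 21.6 CPM over all 15 libraries. Both *CBS-/-*(5) libraries, with 21.6 and 17.6 CPM, were above the control, and both of double deletion strain (2), with 12.6 and 12.7 CPM, were below it. Its log2 fold changes ran from -0.43 ± 0.20 in strain (2) to 0.24 ± 0.19 in *CBS-/-*(5), and with offsets for exon length the value in strain (2) was 0.12.

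nAChRalpha2 was at 24.3 and 19.1 CPM in the control and at 34.5 and 40.7 CPM in *CBS-/-*(5), 30.9, 37.2 and 35.6 CPM in *CBS-/-*(8), and 29.6 and 35.1 CPM in double deletion strain (2). Double deletion strain (1) had 31.7, 31.6 and 20.6 CPM, and *CSE-/-* had 24.1, 29.5 and 22.9 CPM. No library with a deletion was below both controls, and 10 of 13 were above both. Of all genes tested, 31.7%, 18.8% and 29.2% lay wholly above the control in *CBS-/-*(5), *CBS-/-*(8) and double deletion strain (2). The log2 fold change was largest in *CBS-/-*(5), at 0.81 ± 0.20 (adjusted p = 0.0628), where DESeq2 called it (0.80, adjusted p = 0.0430), and lay between 0.23 and 0.65 in the other strains. Without replicate 1 of *CBS-/-*(8) it was called higher there (0.74, adjusted p = 0.0486).

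nAChRalpha3 had 3.73 and 4.48 CPM in the control. It had 2.39 and 2.02 CPM in *CBS-/-*(5), and 1.82, 1.90 and 2.84 CPM in double deletion strain (1), all below the control. Strain (2), with 3.26 and 2.40 CPM, was also below it. *CBS-/-*(8) had 4.33, 3.75 and 3.73 CPM, and *CSE-/-* had 2.28, 2.34 and 4.50 CPM. The log2 fold changes were -0.87 ± 0.32 in *CBS-/-*(5) (adjusted p = 0.141) and -0.92 ± 0.36 in strain (1) (adjusted p = 0.230). They were -0.55 ± 0.36 in strain (2) (adjusted p = 0.428), -0.45 ± 0.44 in *CSE-/-* (adjusted p = 0.950) and -0.08 ± 0.35 in *CBS-/-*(8). With offsets for 3′ UTR length the value in strain (1) was 0.14, and only *CBS-/-*(5) stayed below 0. The gene shares 251 bp of exon with CG1636 on the other strand.

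Of the beta subunits, nAChRbeta1 differed most in CPM between replicates. The control libraries stood at 62.4 and 25.4 CPM, double deletion strain (1) at 61.1, 45.7 and 27.7 CPM, and *CSE-/-* at 53.2, 64.7 and 30.1 CPM. *CBS-/-*(5) had 81.2 and 80.7 CPM, *CBS-/-*(8) had 63.0, 85.6 and 49.5 CPM, and strain (2) had 52.0 and 38.0 CPM. Control replicate 3, replicate 3 of strain (1) and replicate 4 of *CSE-/-* were the low ones. Per library, the median log2 CPM of 2016 genes with over 4000 bp of exon was taken relative to that of all genes. Over 15 libraries nAChRbeta1 correlated with this value at r = 0.79, against -0.15 to 0.48 for the other tested members. Its part in the spread of nAChRbeta1 was not tested. Against such a control no change was called with all libraries, with standard errors of 0.38 to 0.44. Without control replicate 1 nAChRbeta1 was called higher in *CBS-/-*(5) (log2 fold change 1.67, adjusted p = 0.0295). The log2 fold change was 0.89 in *CBS-/-*(5) and 0.01 in strain (2), and it turned to -0.49 in strain (2) without control replicate 3.

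nAChRbeta2 was at 55.5 and 35.9 CPM in the control and between 40.9 and 78.5 CPM in the strains with deletions. Both libraries of *CBS-/-*(5) (63.1 and 64.1 CPM) and of strain (2) (57.6 and 78.5 CPM) were above both controls. Log2 fold changes from 0.05 ± 0.30 in *CSE-/-* to 0.55 ± 0.28 in strain (2) did not pass the test, and with offsets for exon length the values were -0.09 in *CBS-/-*(8) and -0.0011 in *CSE-/-*. Without control replicate 1 it was called higher in *CBS-/-*(5) (0.82, adjusted p = 0.0435).

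nAChRbeta3, a single-transcript gene at 545129 to 547096 on 2L, had no read in any of the 15 libraries. All 1532 bp of its exons lie inside exons of Ets21C on the opposite strand, which itself had 3 to 35 reads. Of the 76 genes of at least 500 bp whose exons lie wholly within exons of a gene on the other strand, 74 (97.4%) had 0 reads in every library, against 909 of 9978 genes (9.11%) with no such overlap. Reads on shared exons were thus not assigned by strand, and the 0 of nAChRbeta3 says nothing about its level.

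**Figure D3:**
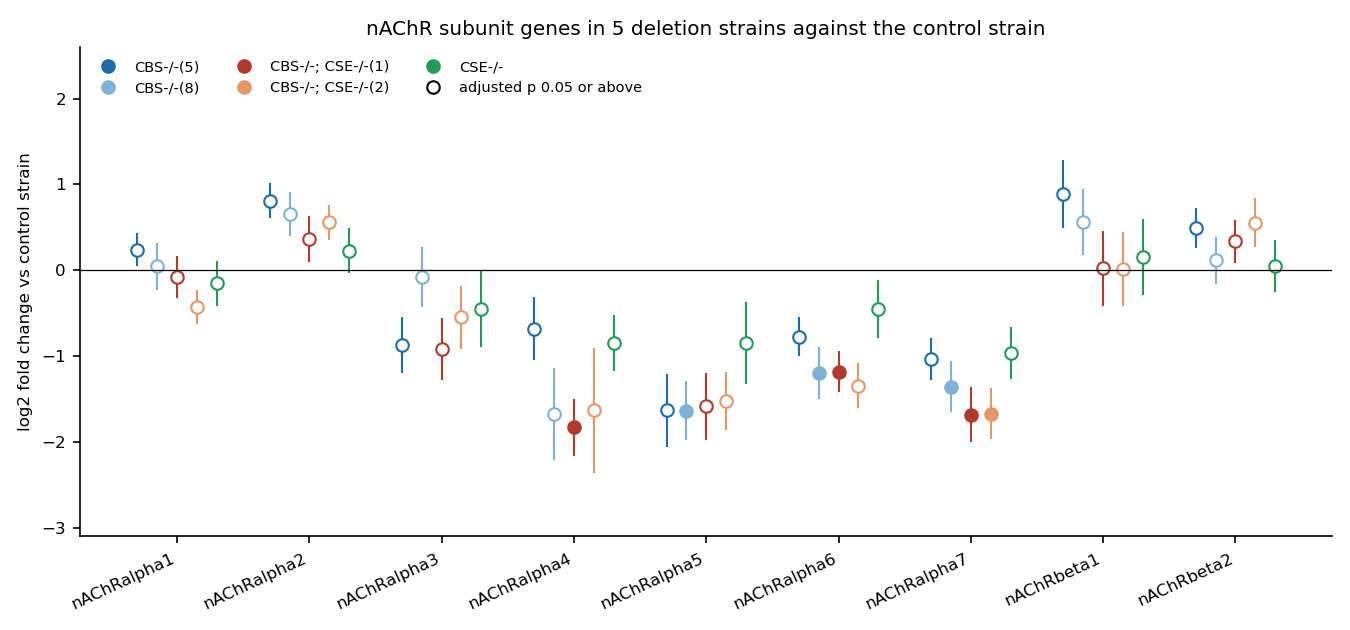
Log2 fold change of 9 subunit genes in each of 5 strains against the control strain, with standard errors, and filled points for an edgeR adjusted p under 0.05. nAChRalpha3 to nAChRalpha7 lie below 0 in all 5 strains, as do 20.8% of all genes tested. There are 7 filled points among them but none for nAChRalpha3. nAChRalpha2, nAChRbeta1 and nAChRbeta2 lie above 0. With offsets for 3′ UTR length nAChRalpha3 moved above 0 in every strain but *CBS-/-*(5). With offsets for exon length nAChRbeta2 moved to -0.09 in *CBS-/-*(8) and -0.0011 in *CSE-/-*. Without control replicate 3 nAChRbeta1 moved to -0.49 in double deletion strain (2).

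The genotypes were also compared directly. Between the 5 libraries of the double deletion strains and the 5 of the *CBS-/-* strains, nAChRbeta1 was the only member called, with a log2 difference of -0.69 ± 0.22 (adjusted p = 0.0417), while 14.4% of all genes tested were called lower and 13.3% higher. The libraries of the genotypes overlapped, from 27.7 to 61.1 CPM against 49.5 to 85.6 CPM. Leaving out each library in turn, the call was kept only without replicate 1 of double deletion strain (1) or replicate 1 of *CBS-/-*(8). Without any of the other 8 libraries it was lost, with an adjusted p of up to 0.102 and a log2 difference between -0.79 and -0.55. With offsets for exon length or 3′ UTR length it was lost as well (adjusted p = 0.0807 and 0.104), and nAChRbeta2 was called higher instead. For nAChRalpha4, nAChRalpha5, nAChRalpha6 and nAChRalpha7 the differences were -0.56 (95% interval -1.65 to 0.53), 0.08 (-0.50 to 0.66), -0.23 (-0.62 to 0.16) and -0.45 (-0.96 to 0.05).

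Neither comparison with *CSE-/-* called a member (edgeR and DESeq2, 0 of 9 each), where 1.52% of genes were called for the *CBS-/-* strains and 1.73% for the double deletion strains. An unadjusted p under 0.05 was found for nAChRalpha2 in the former, where every *CBS-/-* library was above every *CSE-/-* library (3.26% of all genes tested), and for nAChRalpha6 and nAChRalpha7 in the latter. Every double deletion library was below every *CSE-/-* library in nAChRalpha6, with a log2 difference of -0.80 (95% interval -1.32 to -0.28, adjusted p = 0.122), as were 6.03% of all genes tested. That of nAChRalpha7 was -0.71 (-1.33 to -0.10, adjusted p = 0.212). The *CBS-/-* strains differed from *CSE-/-*, with *CSE-/-* as the reference, by -0.59 (-1.19 to 0.01) for nAChRalpha6 and -0.81 (-1.68 to 0.05) for nAChRalpha5. The values were -0.36 (-1.45 to 0.74) for nAChRalpha4 and -0.28 (-0.85 to 0.29) for nAChRalpha7. A lower level in the strains without *CBS* than in *CSE-/-* was thus not established for these subunits.

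The strains of one genotype did not differ in any member past the threshold. Between *CBS-/-*(8) and *CBS-/-*(5) the log2 differences ranged from -0.95 for nAChRalpha4 to 0.84 for nAChRalpha3, 1 of 9 had an unadjusted p under 0.05 (nAChRalpha3), and 3.86% of all genes were called. Between the double deletion strains they ranged from -0.34 to 0.37, none had an unadjusted p under 0.05, and 0.353% of all genes were called. DESeq2 called no member in either.

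Among other genes of the cholinergic system, edgeR called 1 against the control. The list held 10 matched genes, of which 9 were tested: the enzymes ChAT and Ace that make and degrade acetylcholine, the choline transporter ChT, muscarinic receptors, and factors such as RIC-3 that help nicotinic receptors assemble. None was called lower in any strain by edgeR or DESeq2. DESeq2 also called Hasp higher in double deletion strain (2) (edgeR log2 fold change 1.04, adjusted p = 0.139), and an unadjusted p under 0.05 was found for mAChR-B and Hasp in *CBS-/-*(5), for qvr in strain (1) and for Ace and Hasp in strain (2). By edgeR mAChR-B, a muscarinic receptor, was called higher in *CBS-/-*(5) (log2 fold change 1.05 ± 0.24, adjusted p = 0.0497). That call was lost without any of the 4 libraries (adjusted p of 0.0515 to 0.190). Its libraries there had 15.3 and 17.9 CPM against 9.33 and 6.81 CPM in the control. In the strain order used above, these genes had median log2 fold changes of 0.54, 0.40, -0.05, -0.17 and 0.19, beside 0.03, 0.04, 0.02, 0.00 and 0.01 for all genes, and that of the 9 subunit genes was -0.68, -0.08, -0.92, -0.55 and -0.45. Between the double deletion and the *CBS-/-* strains, 5 of these 9 genes were called lower by edgeR and 4 by DESeq2, beside the 14.4% of all genes, and edgeR's log2 differences lay between -0.93 and -0.42. The number of all genes called lower in this comparison, 1325, ranged from 143 to 2043 when each library was left out, the lowest being without replicate 2 of *CBS-/-*(8). They were Ace, ChT, RIC-3, mAChR-A and hig, an extracellular protein of cholinergic synapses, and are named here after their values were seen.

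Other channels of the same superfamily, which are gated by GABA, glutamate, histamine, zinc or pH, were called in some strains. The GABA receptor subunit Rdl was at 24.8 and 25.1 CPM in the control, at 12.2 and 10.1 CPM in *CBS-/-*(5), at 7.16, 11.3 and 14.6 CPM in *CBS-/-*(8), and at 9.78 and 9.01 CPM in double deletion strain (2). It was called lower in these 3 strains, at -1.14 ± 0.19, -1.18 ± 0.32 and -1.42 ± 0.20 (adjusted p = 0.0216, 0.0497 and 0.0246). The pH-sensitive chloride channel pHCl-1 was called lower in *CBS-/-*(8) (-2.59 ± 0.43, adjusted p = 0.00415) and strain (2) (-2.64 ± 0.47, adjusted p = 0.0463). The calls of Rdl were lost in *CBS-/-*(5) without control replicate 3 or its own replicate 3, and without either control library in *CBS-/-*(8) and strain (2), with an adjusted p of up to 0.134, 0.253 and 0.0796. With offsets for 3′ UTR length Rdl was called in none of them, at -0.63, -0.51 and -0.40 (adjusted p = 0.0807, 0.339 and 0.344), nor with all 15 libraries in 1 fit (adjusted p = 0.113, 0.0610 and 0.0518). The calls of pHCl-1 were lost without control replicate 3 in *CBS-/-*(8) (adjusted p = 0.0924) and without either control library in strain (2) (up to 0.165). SecCl was called higher in strain (2), at 49.7 and 52.5 CPM against 24.6 and 20.1 CPM in the control (1.17 ± 0.19, adjusted p = 0.0392), a call lost without either control library (up to 0.107). pHCl-2, which is known from the midgut, had no read in *CBS-/-*(5) and 4.23 and 20.4 CPM in the control, and *CBS-/-*(5) was the strain where the midgut markers were lowest. Of 12 matched genes, 2 of 11, 2 of 12, 0 of 11, 2 of 11 and 0 of 11 tested were called lower in the 5 strains. Of all genes tested, 7.74%, 4.67%, 3.03%, 2.36% and 0.565% were called lower there. The 2 in *CBS-/-*(5) were Rdl and pHCl-2 (edgeR adjusted p = 0.0216 and 0.0344), and pHCl-2 was not called with no filter (0.108). In double deletion strain (1) 4 had an unadjusted p under 0.05 and DESeq2 called 2, and in *CSE-/-* both counts were 0.

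The summed level of neuron markers was lower alongside nAChRalpha4 to nAChRalpha7. Of 11 neuron markers, 4, 3, 7, 4 and 0 were called lower in the 5 strains in the order above, beside 7.74%, 4.67%, 3.03%, 2.36% and 0.565% of all genes. Log2 fold changes below 0 were found for 8, 9, 11, 11 and 11 of them, so the list did not fall as one in the *CBS-/-* strains. Some of these markers are also on a list that the study made from these libraries. Their summed level was 461 and 553 CPM in the control, 380 CPM in both libraries of *CBS-/-*(5), 296 to 416 CPM in *CBS-/-*(8), 217 to 248 CPM and 176 to 253 CPM in the double deletion strains and 227 to 374 CPM in *CSE-/-*. As a ratio of strain means to the control mean, the markers were at 0.749, 0.684, 0.449, 0.423 and 0.634, and nAChRalpha4 to nAChRalpha7 summed were at 0.510, 0.382, 0.350, 0.349 and 0.598. Over the 15 libraries, which share their scaling, the sum of these subunits correlated with the marker sum at r = 0.80 (Spearman's rho = 0.73). For the sum of nAChRalpha2, nAChRbeta1 and nAChRbeta2 the correlation was r = -0.03 (rho = 0.16). Correlations of single subunits with the level of genes with long 3′ UTRs are given below. Both groups of subunits were formed after their values were seen, and the mean marker sum was below the control in every strain. The contrast between these correlations therefore follows in part from the choice of groups. Fat body markers (5 genes) were at 2373 and 3615 CPM in the control and at 403 to 2140 CPM in the 13 other libraries. Of the 5, 3, 2, 3, 2 and 0 were called lower in the 5 strains and 0, 0, 1, 1 and 0 higher. Of all genes tested, 1.6%, 1.76%, 1.15%, 1.1% and 0.213% were called higher. Photoreceptor markers were at a mean of 40541 CPM in the control, 42449 and 48165 CPM in the *CBS-/-* strains, 57128 and 52137 CPM in the double deletion strains and 46152 CPM in *CSE-/-*. Glia markers (7 genes) had a mean of 1517 CPM in the control and 1796, 1874, 1604, 1261 and 1925 CPM in the 5 strains. Muscle markers (6 genes) had 3711 CPM and 4079, 4550, 4708, 4876 and 4123 CPM. Why the neuron marker sum was lower was not tested. Cell numbers and RNA per cell cannot be told apart in RNA of whole heads, and the part of any of these markers in the subunit results was not tested.

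**Figure D4:**
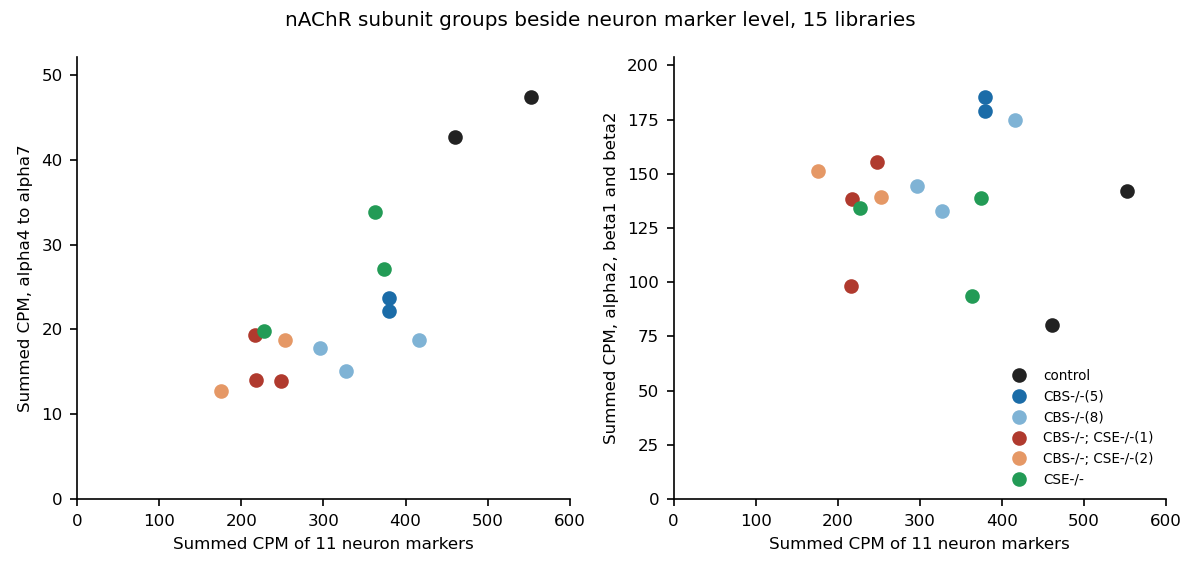
Summed CPM of nAChRalpha4 to nAChRalpha7 (left) and of nAChRalpha2, nAChRbeta1 and nAChRbeta2 (right) against the summed CPM of 11 neuron markers in 15 libraries, coloured by strain. On the left the control libraries are highest on both axes, and on the right no such order is seen. The groups of subunits were formed after their values were seen, so this contrast follows in part from their choice.

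Genes with long 3′ UTRs were also lower in these strains. Among all tested genes whose longest annotated 3′ UTR exceeds 4000 bp (143 or 144 genes), the median log2 fold change was -0.70, -0.75, -0.98, -1.08 and -0.54 in that same strain order. For 3′ UTRs above 2500 and up to 4000 bp it was -0.02, -0.18, -0.51, -0.56 and -0.25. nAChRalpha5 (5083 bp), nAChRalpha3 (6757 bp) and nAChRalpha1 (7843 bp) belong to the former class, and nAChRalpha7 (2637 bp), nAChRbeta2 (2967 bp), nAChRalpha4 (3518 bp) and nAChRalpha6 (3791 bp) to the latter. nAChRalpha2 and nAChRbeta1 have 3′ UTRs of 135 and 654 bp. Within the longest class nAChRalpha5 lay below the class median in all 5 strains and nAChRalpha1 above it, while nAChRalpha3 was below it only in *CBS-/-*(5). Within the next class nAChRalpha4, nAChRalpha6 and nAChRalpha7 lay below the class median and nAChRbeta2 above it in all 5. Genes with at least 15 merged exons had medians of 0.43, 0.23, -0.21, -0.18 and 0.07. Per library, the median log2 CPM of 146 genes with 3′ UTRs above 4000 bp was taken relative to that of all genes. Over 15 libraries it correlated with nAChRalpha4 to nAChRalpha7 at r = 0.67, 0.76, 0.92 and 0.88. For nAChRalpha1 to nAChRalpha3 r was 0.39, -0.56 and 0.50, and for nAChRbeta1 and nAChRbeta2 -0.17 and -0.70. nAChRalpha1, nAChRalpha3 and nAChRalpha5 are themselves among these genes.

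With offsets that remove the trend of counts with 3′ UTR length from each library, an alternative chosen after the data were seen, nAChRalpha4 to nAChRalpha7 stayed below 0 in all 5 strains. nAChRalpha7 in *CBS-/-*(8) was the only call for a lower level that held (-1.14 ± 0.26, adjusted p = 0.0402). Its values in the double deletion strains were -1.08 and -1.09 (adjusted p = 0.176 and 0.0670). nAChRalpha1 was then called higher in *CBS-/-*(5), *CBS-/-*(8) and double deletion strain (1), at 1.04, 1.02 and 1.06, with adjusted p of 0.0181, 0.0472 and 0.0447, nAChRbeta2 in *CBS-/-*(5) and double deletion strain (1), at 0.68 and 0.98, and nAChRalpha2 in *CBS-/-*(5), at 0.96. Why genes with long 3′ UTRs were lower was not tested.

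**Figure D5:**
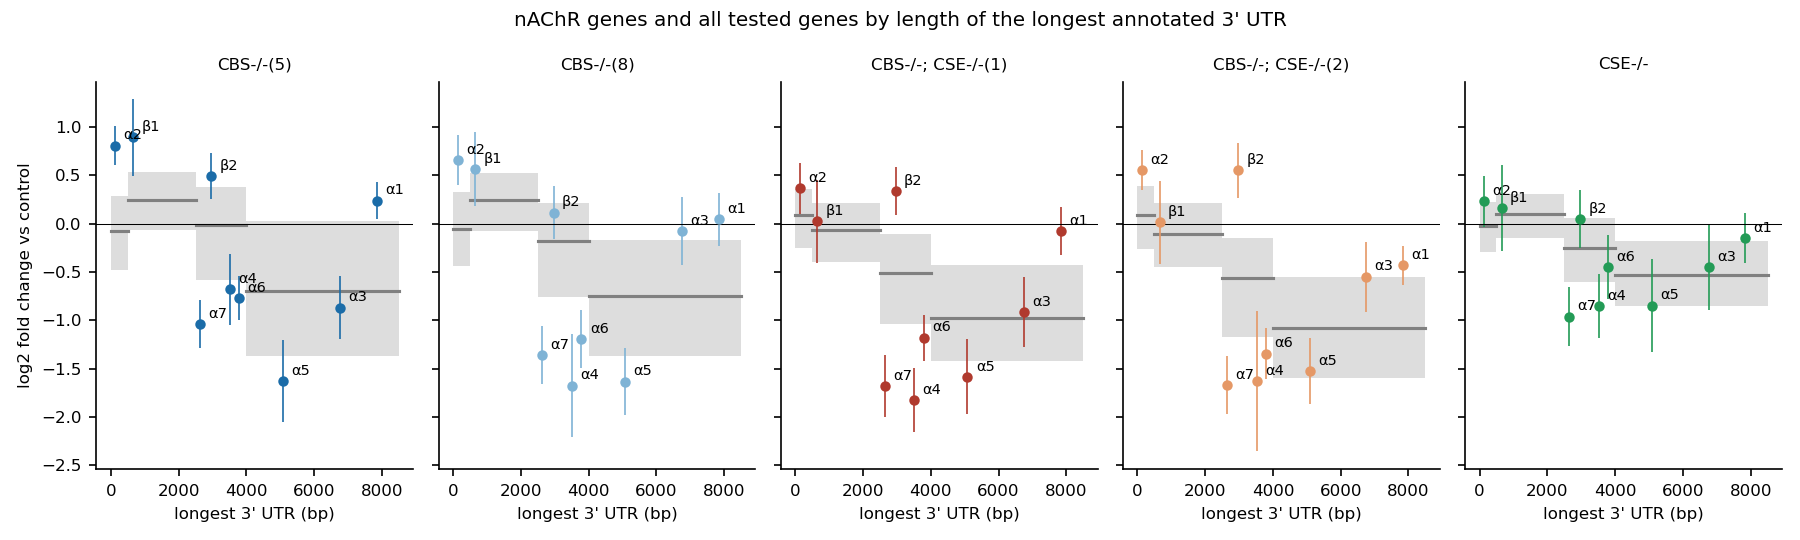
Log2 fold change against the control (points with standard errors) of 9 subunit genes by the length in bp of their longest annotated 3′ UTR, with a panel per strain. Grey lines and bands give the median and the middle 50% of all tested genes in 4 length classes. nAChRalpha4 to nAChRalpha7 lie below the median of their class in every strain. With offsets for 3′ UTR length the values of nAChRalpha1 were above 0 in all 5 strains.

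The members did not vary as one block. Over the 15 libraries, log2 CPM correlated at r = 0.81 between nAChRalpha5 and nAChRalpha6, 0.80 between nAChRalpha6 and nAChRalpha7, 0.75 between nAChRalpha4 and nAChRalpha7 and 0.74 between nAChRalpha2 and nAChRbeta1. nAChRalpha2 and nAChRalpha5 ran in opposite directions (r = -0.70), as did nAChRalpha3 and nAChRbeta2 (r = -0.68). After the strain means were taken out, r was 0.64, 0.29, 0.49 and 0.68 for the first 4 pairs. The libraries share strain, depth and scaling, so these values describe the pattern only.

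Outside the family, the genes whose log2 CPM over the 15 libraries was most like the mean standardised pattern of the 9 members were igl (r = 0.91), CaMKII (r = 0.90), the calcium and calmodulin dependent kinase II, and Crg-1 (r = 0.89). The closest match was CG42784 for nAChRalpha4 (r = 0.95), Ugt301D1 for nAChRalpha5 (r = 0.93), the potassium channel gene SK for nAChRalpha6 (r = 0.95) and dpr9, a cell surface protein of the immunoglobulin superfamily, for nAChRalpha7 (r = 0.93). Spearman's rho for these 7 genes was between 0.80 and 0.94.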

How the data were processed

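Polyadenylated RNA of heads was measured in 15 libraries, grouped by the strain in their labels. The authors trimmed the reads with Trimmomatic, aligned them with STAR to dm6 and deposited raw counts of reads per gene, without normalization. Trimmomatic, STAR, SAMtools and featureCounts are named in the submitters' processing notes, and their versions, strand setting and annotation release are not given in the sources used here. The protocol states 3 biological replicates per strain, of which 2 or 3 were analysed here. Symbols (for 17179 of 17453 identifiers), coordinates, exon lengths and 3′ UTR lengths came from Ensembl's BDGP6 annotation.

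Counts were fitted in edgeR 4.0.16 (R 4.3.3) with TMM and the quasi-likelihood model, as in the study's methods, in a fit for each of 10 comparisons. The filter (filterByExpr) and the legacy form of the test were chosen here. Benjamini-Hochberg adjustment ran over the whole table, with a threshold of 0.05. The standard error is the size of the log2 fold change over the root of the F statistic. The 95% intervals use the t quantile of the fit's degrees of freedom. CPM used TMM-scaled sizes, and correlations used log2 CPM with a prior count of 2. Total counts were 6850445 to 21144213 per library, with a median of 10285508. Precision comes from replicates, since their counts differed beyond counting error, and p-values measure only the spread between these libraries. Scripts were tested on simulated data.

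The text names all 10 members, *CBS*, *CSE*, up to 6 cholinergic and 4 other channel genes called in a comparison with the control, and the genes with the most similar pattern. Members, lists and tests were chosen with earlier results of these data known. The 4 listed genes that could not be matched (VAChT, para, FASN1 and wupA) were not analysed here. Alternatives were RLE normalization, DESeq2 1.42.0, no filter, a minimum of 10 counts per library, all 15 libraries in 1 fit, legacy off, an adjusted p under 0.01, offsets for exon length (lowess span 0.3), strains as separate groups, a replicate block and leaving out each library. Offsets for 3′ UTR length and a crossed block were added after the data were seen. Where a strain was left with 1 library, that library was assumed to vary like those of the other group. Python 3.11.15, pandas 2.3.3, numpy 2.4.6, scipy 1.17.1 and matplotlib 3.10.9 made the tables and plots.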

Additional observations from a re-analysis of the deposited data

Results flagged for a closer look

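Tested directly, nAChRbeta1 differed between the double deletion and *CBS-/-* strains by -0.69 on the log2 scale (edgeR adjusted p = 0.0417). Each side pooled 5 libraries of different strains, and their ranges overlap. Calls were common in this comparison, with 14.4% of all genes tested called lower and 13.3% higher. The call of nAChRbeta1 was lost without most single libraries. It was also lost with no filter (adjusted p = 0.0543), all 15 libraries in 1 fit (0.0952) or the replicate block (0.150). Either length offset and a threshold of 0.01 lost it too, and the remaining alternatives, strains as separate groups among them, kept it.

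nAChRalpha1 was above both control libraries in both libraries of *CBS-/-*(5) and below both in both libraries of double deletion strain (2). Of all genes tested, 31.7% lay wholly above the control in *CBS-/-*(5) and 25.6% wholly below it in strain (2). The log2 fold changes of nAChRalpha1, 0.24 and -0.43, differ by 0.67. The difference between these strains was not tested, and neither change passed the test against the control. The value in strain (2) turned above 0 with offsets for exon length or 3′ UTR length, and was 0.89 with the latter.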

How the results depend on the processing

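nAChRalpha4 to nAChRalpha7 kept log2 fold changes below 0 in all 5 strains under every alternative and left-out library in which they were tested (nAChRalpha4 was not tested in *CBS-/-*(8) with at least 10 counts in every library), while the number of members called was less stable. In the main fits, which share the control libraries, 20.8% of all genes tested were below 0 in all 5 strains. In *CBS-/-*(5), where 0 of 9 were called, the count was 1 with RLE normalization, 3 with DESeq2 (2 lower, 1 higher), 1 with at least 10 counts in every library, 2 with exon length offsets (both lower) and 3 with 3′ UTR length offsets (all higher). In double deletion strain (2), where 1 was called, it was 2 with RLE, 3 with DESeq2, 3 with no filter, 2 with at least 10 counts, 2 with all 15 libraries in 1 fit and 0 with 3′ UTR length offsets. In double deletion strain (1) it was 1 with exon length offsets against 3, and with 3′ UTR length offsets 0 were lower and 2 higher. At an adjusted p under 0.01 it was 0 in *CBS-/-*(8), in both double deletion strains and between the double deletion and *CBS-/-* strains, and in the last comparison also 0 with no filter and 0 with all 15 libraries in 1 fit, while either length offset lost nAChRbeta1 and called nAChRbeta2 higher. Leaving out each library gave 0 to 2 in *CBS-/-*(5), 0 to 4 in *CBS-/-*(8), 0 to 4 and 0 to 2 in the double deletion strains and 0 to 1 between the double deletion and *CBS-/-* strains. The causes of these changes were not tested.

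Directions turned for values that were not called, of which nAChRalpha1 in double deletion strain (1) was called after it turned. With exon length offsets, nAChRalpha1 was 0.46, 0.12 and 0.055 in the double deletion strains (1) and (2) and *CSE-/-*, nAChRalpha3 was 0.0073 in *CBS-/-*(8), and nAChRbeta2 was -0.087 in *CBS-/-*(8) and -0.0011 in *CSE-/-*. With 3′ UTR length offsets, nAChRalpha1 was 1.06, 0.89 and 0.55 in the same 3 strains, and nAChRalpha3 was 0.78, 0.14, 0.62 and 0.16 in *CBS-/-*(8), both double deletion strains and *CSE-/-*. Between the double deletion and *CBS-/-* strains, exon length offsets gave 0.010 for nAChRalpha7 and 0.26 for nAChRalpha6, and 3′ UTR length offsets gave 0.15 for nAChRalpha6. Leaving out each library moved nAChRalpha1 from -0.10 to 0.15, nAChRalpha3 from -0.22 to 0.083 and nAChRbeta2 from -0.13 to 0.46 in *CBS-/-*(8). It moved nAChRalpha1 from -0.24 to 0.083 and nAChRbeta1 from -0.48 to 0.82 in double deletion strain (1), nAChRbeta1 from -0.49 to 0.81 in strain (2), and nAChRbeta1 from -0.33 to 0.95 and nAChRbeta2 from -0.22 to 0.40 in *CSE-/-*. Between the double deletion and *CBS-/-* strains nAChRalpha5 moved from -0.082 to 0.22, and between the double deletion strains and *CSE-/-* nAChRbeta1 moved from -0.37 to 0.10.

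Replicate numbers were shared by libraries of different strains, but nothing in the labels ties them to a batch. Deviations of same-numbered libraries correlated at -0.145 between the control and *CBS-/-*(5), at 0.246 and 0.357 between the control and double deletion strain (1) and at 0.0626 and -0.542 between the control and *CSE-/-*. With the replicate block, 4 members were called in *CBS-/-*(5), 2 lower (nAChRalpha5 and nAChRalpha7) and 2 higher, 4 lower in double deletion strain (1), where nAChRalpha5 was added, and 0 between the double deletion and *CBS-/-* strains, where 21 of all genes were called lower against 1325, and nAChRalpha1 was 0.056 in double deletion strain (1). With the crossed pairing of the replicate block, chosen after the data were seen, 5 were called in *CBS-/-*(5), 3 lower and 2 higher. The block could not be fitted for *CBS-/-*(8) or double deletion strain (2) against the control, nor between strains of one genotype. Depth limits nAChRalpha3, nAChRalpha4 and nAChRalpha5 most, with as few as 21, 8 and 16 reads in a library.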
